A study of Homo sapiens with 2 samples.

Results

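The genes described are 10 integrin subunits of megakaryocytes, platelets and leukocytes, ITGA2B, ITGB3, ITGA2, ITGA5, ITGA6, ITGAV, ITGB1, ITGA4, ITGB2 and ITGAL, out of 17280 gene symbols named on a pair of human promoter arrays. They were chosen by symbol, and all 345 probes that the arrays annotate with 1 of these symbols and a distance from its transcription start are described. The sample was chromatin of Meg-01 cells, an untreated line from a human megakaryocytic leukemia. It was precipitated with the GATA1 (C-20) antibody, which recognizes the C-terminus of GATA1 (the IP), or side by side with normal goat IgG. The IP was labeled with Cy5 and the IgG with Cy3 on both arrays, called chIP1 and chIP2 after the sample titles, which hold different probes. Each probe was therefore measured in 1 hybridization of 1 cell line, without replicates or swapped dyes, and no test between groups was possible. The arrays measured DNA, so the cell type could not be checked against expressed markers.

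GATA1 is a zinc finger transcription factor of the erythroid and megakaryocytic lineages, and it binds short sequences built around GATA. Integrins are cell surface receptors made of an alpha and a beta chain, which hold cells to matrix proteins or to other cells. On platelets, ITGA2B (CD41) and ITGB3 (CD61) pair as the fibrinogen receptor that carries aggregation, ITGA2 pairs with ITGB1 as a collagen receptor, ITGA5 with ITGB1 as a fibronectin receptor, ITGA6 with ITGB1 as a laminin receptor, and ITGAV with ITGB3 as a vitronectin receptor. ITGA4 pairs with ITGB1 to bind VCAM1 on endothelium, and ITGAL pairs with ITGB2 to bind ICAM1 on leukocytes and endothelium. For the contrast below, the 7 genes from ITGA2B to ITGB1 in the list above were grouped as integrins of platelets and the other 3 as the remaining integrins.

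Promoter sequences are shown for the integrin with the highest window (ITGA2B), the one whose highest window was the lowest of the 10 (ITGA2), and ITGAV and the inner start of ITGB1, whose windows at the start are described below. Each is the 250 bases before a RefSeq start in GRCh38.p14, read 5′ to 3′ on the strand of the gene, in lower case. Capitals mark GATA, or TATC where GATA lies on the opposite strand, extended to 6 letters where the run is the motif AGATAA, the motif AGATAG, the motif TGATAA or the motif TGATAG.
ITGA2B: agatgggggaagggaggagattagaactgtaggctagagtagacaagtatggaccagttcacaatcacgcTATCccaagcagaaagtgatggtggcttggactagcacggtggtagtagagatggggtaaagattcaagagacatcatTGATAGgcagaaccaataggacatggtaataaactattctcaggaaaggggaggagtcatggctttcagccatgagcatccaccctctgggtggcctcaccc
ITGB1, inner start: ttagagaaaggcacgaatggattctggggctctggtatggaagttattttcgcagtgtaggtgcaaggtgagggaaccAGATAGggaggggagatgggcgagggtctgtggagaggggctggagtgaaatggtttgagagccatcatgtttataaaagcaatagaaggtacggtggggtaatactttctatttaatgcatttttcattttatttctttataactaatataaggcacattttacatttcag
ITGAV: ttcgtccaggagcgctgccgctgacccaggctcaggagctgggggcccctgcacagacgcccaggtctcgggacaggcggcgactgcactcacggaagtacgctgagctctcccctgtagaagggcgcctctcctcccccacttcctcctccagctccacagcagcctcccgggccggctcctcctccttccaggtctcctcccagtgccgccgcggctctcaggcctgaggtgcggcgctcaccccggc
ITGA2: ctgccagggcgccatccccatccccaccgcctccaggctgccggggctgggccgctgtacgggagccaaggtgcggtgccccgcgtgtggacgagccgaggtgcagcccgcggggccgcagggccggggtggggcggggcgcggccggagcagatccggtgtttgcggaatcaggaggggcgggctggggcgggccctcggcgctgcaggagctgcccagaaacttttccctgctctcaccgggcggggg
These lie at chr17:44389650-44389899 (minus strand), chr10:32935559-32935808 (minus strand), chr2:186589806-186590055 (plus strand) and chr5:52989102-52989351 (plus strand).

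ITGA2B held TGATAG from -102 to -97 and, on the opposite strand, GATA from -180 to -177, counted from the RefSeq start with the last base before it as -1. The inner ITGB1 start held AGATAG from -172 to -167. The printed stretches of ITGAV and ITGA2 held no GATA on either strand. RefSeq promoters matched 7 of the 10 integrins, with 10 starts, and 5 of these 10 starts, from 4 genes, held 1 of the 4 motifs. GATA on either strand was likewise held by 5 of the 10 starts. Over all 35116 RefSeq promoters, 22.3% held 1 of the 4 motifs in these 250 bases and 45.6% held GATA on either strand. The other 3 motif matches were at both ITGA6 starts and at an ITGAV start farther inside that gene, which the array did not tile. That choice of ITGAV start rests on its distance from the ITGA4 start, which differed from the array's by 511 bp for the printed start and by 9638 bp for the other. The array's starts and the RefSeq starts can thus differ by more than the spacing of the probes, and a motif is not placed to the base against a probe.

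The value of a probe was log2 of IP over IgG with the median of its array at 0, so 1 is 2-fold toward the IP. Values were averaged over windows of 3 adjacent probes, and a window averaging 1 or more was called enriched and one averaging -1 or less depleted. The error given for a window comes from the scanner software's own model of 1 array and holds no replicate error. All 345 probes were well above background in both channels by the scanner's flag, and none was saturated. Over all probes the SD of the log2 ratio was 0.97 on each array. Negative control spots had median mean signals of 342 and 340 for the IP and 303 for the IgG on both arrays, so a probe near these signals was close to the floor. Positions are given in bp from the start that the array annotates, negative upstream, and as coordinates of the scanner files, whose genome build is not given in the sources used here. The array classes a probe only as promoter, inside or downstream, so exons and introns were not told apart.

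ITGA2B and ITGAV were the integrins with enriched windows at their starts. Enriched windows were held by 4 of the 10 integrins (ITGA2B with 4 windows, ITGAV with 3, ITGA5 with 2 and ITGB2 with 1), where 57.1% of all 17054 genes with a window had at least 1. Within 1000 bp of the start, 2 of 10 held one (ITGA2B and ITGAV), where 33.5% of all genes did. The same 2 held at least 3 enriched windows, where 31.7% of genes did, a count chosen after the values were seen. Of the 305 windows of the integrins 10 (3.28%) were enriched, where 7.62% of all 415403 windows were. None of these shares was above that over all genes, and the median of their highest windows was 0.92 where all genes had 1.09.

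**Figure D1:**
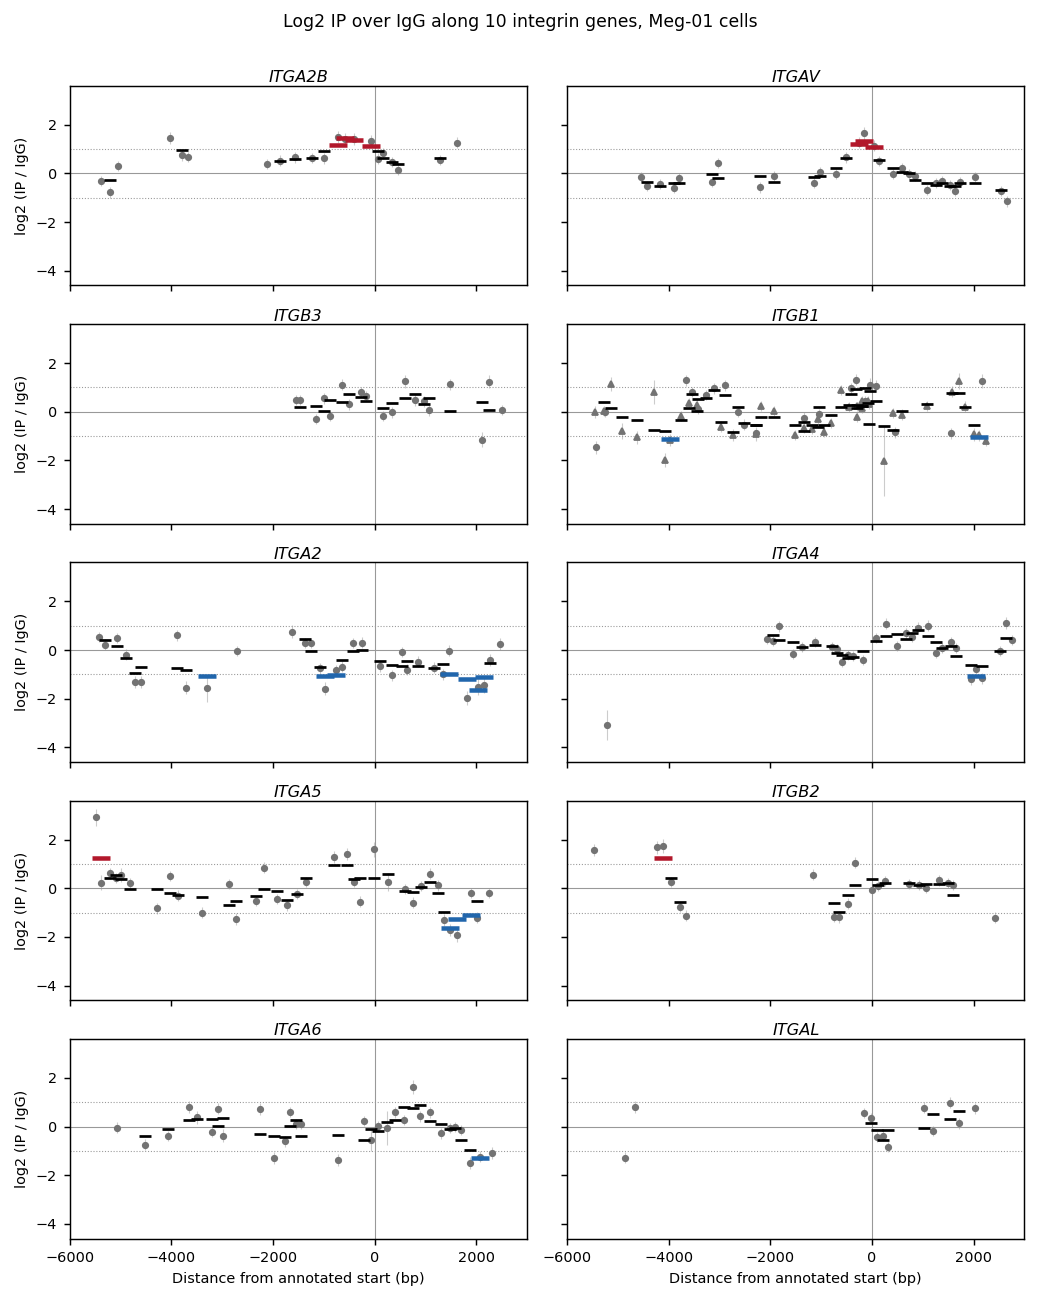
Log2 of IP over IgG (vertical) against distance from the annotated start in bp (horizontal) for each integrin, with probes as gray points with scanner error bars (triangles are the outer starts of ITGB1), windows as black dashes, and enriched and depleted windows as red and blue dashes. ITGA2B and ITGAV rise past 1 over several neighboring probes at the start, while probes beyond 3000 bp inside a gene (ITGA2B, ITGA5 and ITGB2) are not drawn.

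ITGA2B, the alpha chain of the fibrinogen receptor and a classical marker of the megakaryocyte lineage, had the highest window of the 10. It lay at chr17:39822789-39823145, centered at -580, with a mean of 1.44 (scanner error 0.14), or 2.71-fold. Its 3 probes were close to each other, from 1.41 to 1.48. The 5 neighboring promoter probes at -989, -716, -580, -412 and -61 read 0.61, 1.48, 1.42, 1.41 and 1.33. The 4 probes that follow inside the gene, at 65, 171, 340 and 460, read 0.61, 0.82, 0.48 and 0.15. All 9 probes within 1000 bp of the start were above 0, with a mean of 0.92 ± 0.50 (SD over probes, n = 9), at percentile 96.0 of the genes on that array. The raw IP signals of the 3 probes in the highest window were 2270 to 4810 and the IgG signals 755 to 1360, so both channels were bright, and the window was at percentile 99.5 of brightness. A separate probe at -4035 read 1.47, and its window averaged 0.96. The 14 probes downstream of the gene, from 23792 to 26846, ranged from -0.76 to 0.93. The highest value of ITGA2B stood at percentile 73.9 among the genes of its array.

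ITGAV, the alpha chain of the vitronectin receptor, had its highest window over the start itself, at chr2:187280019-187280359, with a mean of 1.35 (scanner error 0.14), or 2.55-fold. The probes at -717, -512, -264, -166, 32, 145 and 421 read -0.02, 0.66, 1.27, 1.64, 1.14, 0.52 and -0.04. The rise was thus bounded on both sides by probes near 0. The IP signals of the window were 840 to 4364 and the IgG signals 421 to 1134, at percentile 98.8 of brightness. The mean within 1000 bp of the start was 0.52 ± 0.63 (SD over probes, n = 10), with 6 of 10 probes above 0. Farther inside, all 9 probes from 1089 to 2655 were below 0, between -1.16 and -0.13.

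The windows of both genes at the start were among the brightest of the arrays. Among the windows in the brightest 5% of each array, 10.1% were enriched, against 7.62% of all windows. With loess on intensity, which removes a trend of the log ratio with brightness, the highest window was 1.20 for ITGA2B and 1.08 for ITGAV. With normexp background correction they were 1.56 and 1.44. Removal of the trend with distance from the start gave 1.32 and 1.06, and windows of 5 probes 1.25 and 1.04. Both genes stayed enriched under each of these. The rest of the 9 alternatives run for single genes could not lose the calls. They kept the same ratios and probes, took the highest single probe, or set a limit that these windows lay within. As 3-probe windows, neither reached a 3-fold threshold or 4 robust SDs of the windows.

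**Figure D2:**
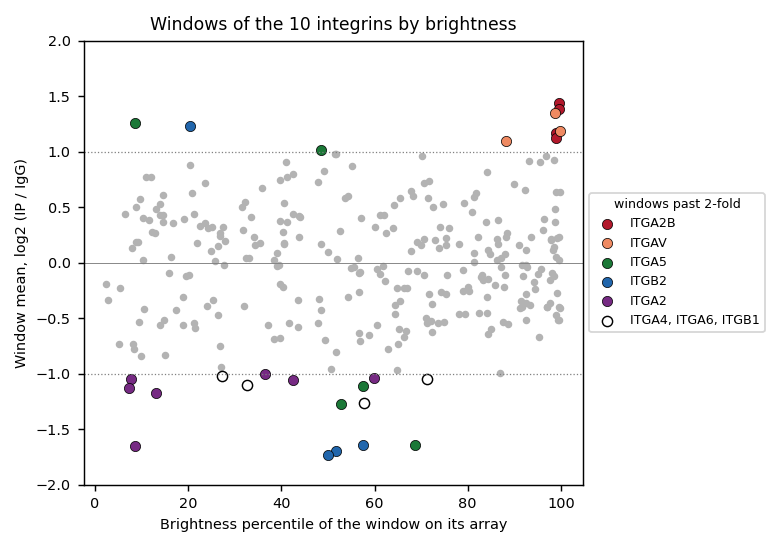
Mean log2 of IP over IgG of each of the 305 windows (vertical) against the brightness percentile of the window on its array (horizontal), with windows past 2-fold in either direction colored by gene. The enriched windows of ITGA2B and ITGAV lie between percentiles 88.2 and 99.9, and those of ITGA5 and ITGB2 between 8.67 and 48.6.

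The enriched windows of ITGA5 and ITGB2 lay away from the start. In ITGA5, the alpha chain of the fibronectin receptor, the highest window was centered far upstream, at -5387, at chr12:53104511-53104839, with a mean of 1.26 (scanner error 0.17). Its 3 probes spread from 0.24 to 2.93, and the mean rested on the probe at -5492, with an IP signal of 536 and an IgG signal of 320. The array medians were 544 for the IP and 440 for the IgG, so that IP signal was near the median of the array and the IgG signal near that of the negative controls. The window was at percentile 8.67 of brightness. A second enriched window of ITGA5 lay at 23956, near the end of the gene, with a mean of 1.02. Near the start the probes at -792, -540 and -2 read 1.28, 1.40 and 1.61, but those between them at -410 and -289 read 0.25 and -0.55, and no window there reached 1. The mean within 1000 bp of the start was 0.42 ± 0.82 (SD over probes, n = 9).

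In ITGB2, the beta chain shared by leukocyte integrins, the enriched window was centered at -4116, at chr21:45169162-45169499, with a mean of 1.23 (scanner error 0.15) and probes from 0.27 to 1.75. Its IP signals were 454 to 577 and its IgG signals 324 to 430, at percentile 20.5 of brightness. The mean of the 9 probes within 1000 bp of the start was -0.14 ± 0.73 (SD). With normexp these highest windows were 0.87 for ITGA5 and 0.50 for ITGB2, and with windows of 5 probes 0.95 and 0.90, so the calls of both genes were lost.

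ITGB3, the beta chain that pairs with ITGA2B and ITGAV, held no window past 2-fold in either direction. Its highest window was centered at -502 with a mean of 0.74 (scanner error 0.13) and probes from 0.30 to 1.12. The 10 probes within 1000 bp of the start averaged 0.47 ± 0.50 (SD), at percentile 74.9 of the genes on the array, and 7 were above 0. The lowest of its 17 windows averaged 0.02, at percentile 96.5 among lowest windows, where the median gene had 23 windows. Of the 19 probes of ITGB3, 14 were above 0, and they ranged from -1.15 to 1.24. The probes at 589 and 2258 both read 1.24. Their IgG signals of 326 and 324 were near those of the negative controls. The probe at 2105, which read -1.15, was also dim, with an IP signal of 364. With normexp the mean of ITGB3 near the start was 0.28.

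ITGB1, the beta chain of most matrix receptors, was tiled at several starts, which differed. Of 21 probes around its inner start, the 6 within 1000 bp averaged 0.67 ± 0.80 (SD), and of 40 probes around its outer starts, the 13 within 1000 bp averaged -0.08 ± 0.73 (SD). Pooled over these starts, the 19 probes averaged 0.16 ± 0.82 (SD). The highest window, at chr10:33264499-33264828 and centered at -138 from the inner start, had a mean of 0.96 (scanner error 0.14) with probes from 0.45 to 1.32. It did not reach the threshold. Removal of the distance trend lowers this window, since the median over all genes in the 500 bp before the start was 0.28. The highest window of ITGB1 was then 1.11, so it lay elsewhere in the gene. Its promoter with the AGATAG motif is the one printed above.

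ITGA6, the laminin receptor chain, had its highest window at 901 inside the gene, with a mean of 0.88 (scanner error 0.14). With loess the highest window of ITGA6 was 1.004, just past the threshold. A single probe at 750 read 1.63, with an IP signal of 451 and an IgG signal of 321. Its mean within 1000 bp of the start was 0.13 ± 0.82 (SD, n = 9). ITGA4, the VCAM1 receptor chain, had a similar place for its highest window, at 909 inside the gene, with a mean of 0.81 and probes from 0.52 to 1.00. Its promoter probes from -592 to -177 were all below 0, between -0.50 and -0.19, and 6 probes from 79 to 909 were all above 0, between 0.16 and 1.09. ITGAL, the alpha chain of the ICAM1 receptor, was tiled by 12 probes, and its highest window was 0.62 at 1717. Its 5 probes within 1000 bp of the start averaged -0.15 ± 0.58 (SD), the 2 upstream reading 0.56 and 0.34 and the 3 inside -0.42, -0.40 and -0.84.

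ITGA2, the alpha chain of the collagen receptor, was the lowest of the 10 on both measures. Its highest window was 0.44 (scanner error 0.13) at -1360, at percentile 7.67 of genes, and its mean within 1000 bp of the start was -0.56 ± 0.60 (SD, n = 10), at percentile 7.18. Of those 10 probes 2 were above 0, at -425 and -248, reading 0.30 and 0.31. It held 7 of the 17 depleted windows of the integrins, the lowest centered at 2039, at chr5:52322810-52323202, with a mean of -1.65 (scanner error 0.18). That window was dim, at percentile 8.56 of brightness.

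**Figure D3:**
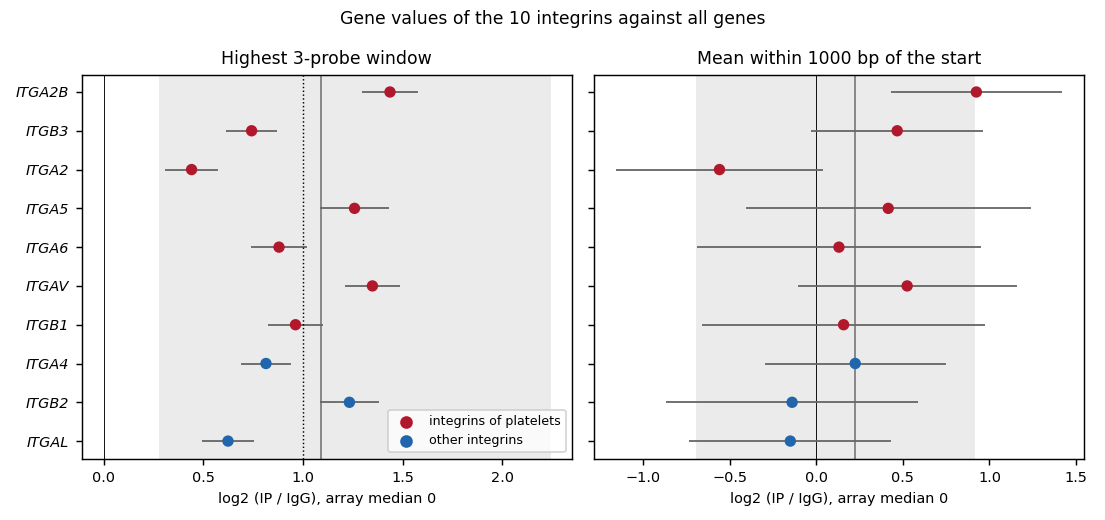
Highest window with its scanner error (left) and mean within 1000 bp of the start with the SD over probes (right), both in log2 of IP over IgG, for each integrin, red for integrins of platelets and blue for the others. The gray band spans the 5th to the 95th percentile of all genes, the gray line is their median and the dotted line is the enrichment threshold, and ITGA2B alone lies above the band on the right.

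In order of the highest window the 10 genes ran ITGA2B, ITGAV, ITGA5, ITGB2, ITGB1, ITGA6, ITGA4, ITGB3, ITGAL and ITGA2. The steps between neighbors were smaller than the scanner error of either gene, except those from ITGB2 to ITGB1 and from ITGAL to ITGA2, which were larger. The genes had from 8 windows (ITGAL) to 53 (ITGB1), and a highest value over more windows tends to be higher. Within 2500 bp of the start the highest windows of ITGA5 and ITGB2 were 0.98 and 0.36. Near the start the order ran ITGA2B, ITGAV, ITGB3, ITGA5, ITGA4, ITGB1, ITGA6, ITGB2, ITGAL and ITGA2, with ITGB1 pooled over its starts. At its inner start alone ITGB1 would stand between ITGA2B and ITGAV, and at its outer starts alone between ITGA6 and ITGB2. Every step between neighbors in the pooled order was smaller than the SD over the probes of either gene. This order also changed with the processing. With loess ITGAV had 0.25 near the start, below ITGB3 at 0.53 and ITGA5 at 0.47. With normexp ITGA4 had 0.34, above ITGB3 at 0.28.

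The integrins of platelets and the others overlapped. Of the 7 integrins of platelets 3 held an enriched window and 4 a depleted one, and of the 3 others 1 and 2. Over all genes 57.1% and 52.9% did. The median highest window was 0.96 in the first group and 0.81 in the second, a difference of 0.15, but it was -0.22 when only ITGA2B, ITGB3 and ITGA2 were set against the 7 others. Near the start the medians were 0.42 and -0.14, a difference of 0.55, with 6 of 7 and 1 of 3 gene means above 0, ITGB1 pooled over its starts. This difference kept its sign under the alternatives run, from 0.25 with normexp to 0.61 with ITGB1 at its inner start alone. The counts of gene means above 0 did not hold. With normexp ITGB2 and ITGAL were above 0, at 0.019 and 0.013, and ITGA6 was below, at -0.044. With the distance trend removed ITGA6 and ITGB1 were below 0, at -0.081 and -0.087. All genes had a median near the start of 0.22, with 70.0% above 0, and the 10 integrins 0.19, with 7 of 10 above 0. That median was 0.32 with ITGB1 at its inner start alone and 0.18 at its outer starts alone. ITGA2B and ITGB3, the fibrinogen receptor pair, had 0.92 and 0.47, and the collagen receptor chain ITGA2 had the lowest value of all 10, so the group of platelet integrins held both ends of the order.

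Depleted windows were held by 6 of 10 integrins, where 52.9% of all genes had one, and made up 17 of their 305 windows (5.57%), where 9.65% of all windows were depleted. They were found in ITGA2 (7), ITGA5 and ITGB2 (3 each), ITGB1 (2), ITGA6 and ITGA4 (1 each). In 5 of the 10 a depleted window was centered 1000 to 3000 bp inside the gene, where 25.2% of all genes with a window there had one, a stretch chosen after the values were seen. Those lowest windows inside the gene were -1.65 at 2039 in ITGA2, -1.64 at 1476 in ITGA5, -1.27 at 2075 in ITGA6, -1.02 at 2106 in ITGB1 and -1.05 at 2055 in ITGA4. The ITGB1 window lay at an outer start, while the probe at 2156 from its inner start read 1.26. Between 2000 and 2500 bp inside, the median probe of the integrins was -0.96, where all genes had -0.13. In that step 2 of 9 integrins had a mean above 0. It was the lowest integrin median of all the 500 bp steps. In the steps on either side the integrin medians were -0.08 and 0.02, where all genes had -0.09 and -0.13. The lowest ITGB2 windows lay deeper, down to -1.73 at 6564, and shared 1 probe at 6389 that read -3.02. With normexp, ITGA5 and ITGB2 were the 2 integrins that still held a depleted window, where 23.9% of all genes held one.

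**Figure D4:**
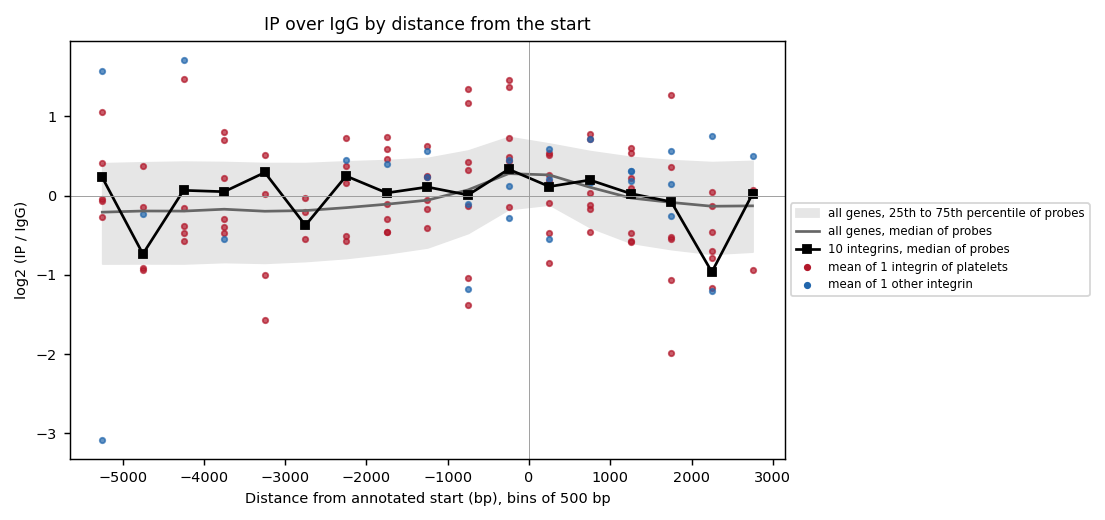
Median log2 of IP over IgG of probes (vertical) by distance from the start in bins of 500 bp (horizontal), for all genes (gray line, with the 25th to 75th percentile as a band) and for the 10 integrins (black squares), with each integrin's bin mean as a colored point. Both lines are highest just upstream of the start, at 0.28 and 0.33. The integrin line falls to -0.96 between 2000 and 2500 bp inside, with -0.08 and 0.02 in the steps on either side.

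The ratio was higher near the start over all genes too. In the 500 bp before the start the median probe was 0.28 over all genes and 0.33 over the integrins, and 8 of 10 integrins had a mean above 0. With the median of all genes at each distance removed, the highest windows were 1.32 for ITGA2B and 1.06 for ITGAV, and the median of the 10 means near the start was -0.026 in place of 0.19.

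**Figure D5:**
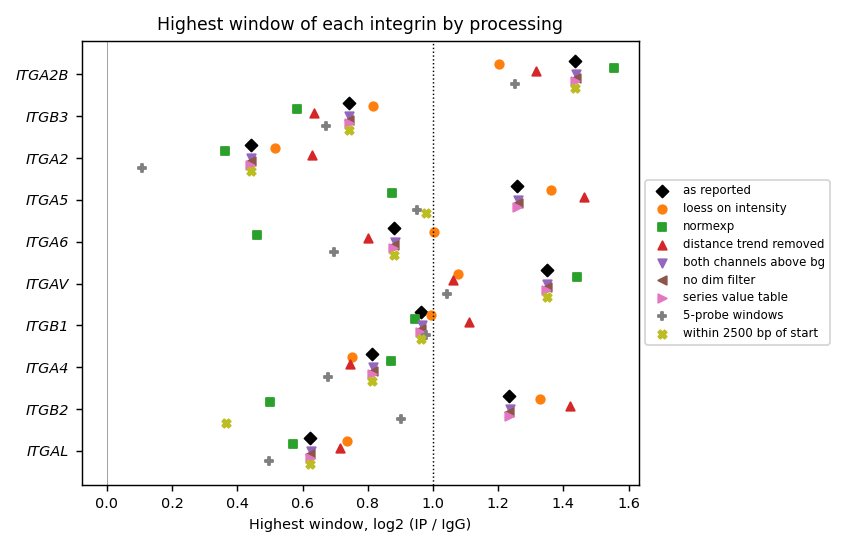
Highest window of each integrin in log2 of IP over IgG (horizontal) under the reported processing (black diamonds) and 8 alternatives, with the dotted line at the enrichment threshold. ITGA2B and ITGAV lie right of the line under each of those shown. ITGA5 and ITGB2 fall left of it under normexp, windows of 5 probes and a limit of 2500 bp from the start. ITGA6 lies right of it with loess (1.004) and ITGB1 with the distance trend removed (1.11). The series value table and both filters on dim probes kept the same ratios and probes of the integrins, so their values could hardly move.

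Other genes of integrin biology were set beside the 10. Over all genes, 57.1% held an enriched and 52.9% a depleted window, with a median highest window of 1.09. Of 16 other integrin genes, 8 held an enriched and 10 a depleted window, with a median highest window of 1.09. The highest were ITGB5, a partner of ITGAV, at 2.34, ITGAE, a chain of mucosal lymphocytes, at 1.97, and ITGB7, its partner, at 1.88. The lowest were ITGA9 at 0.58 and ITGB4, a chain of hemidesmosomes, at 0.40. Of 18 integrin ligands, 11 held an enriched and 11 a depleted window, with a median of 1.30. The highest were the collagen chain COL1A2 at 2.83, vitronectin (VTN) at 2.61 and von Willebrand factor (VWF) at 2.51, and the lowest were the fibrinogen chain FGA at 0.45 and MADCAM1, a ligand of ITGB7 integrins, at 0.44. Of 37 adaptors and signaling genes, 20 held an enriched and 18 a depleted window, with a median of 1.08. The highest were ITGB1BP1, which binds the ITGB1 tail, at 2.66, the talin TLN2 at 2.33 and vinculin (VCL) at 2.05, and the lowest were the GTPase RAP1A at 0.50 and PLEKHC1 (kindlin-2, now FERMT2) at 0.27. Near the start, an enriched window was held by 3 of the 16 other integrins, 4 of the 18 ligands and 11 of the 37 adaptors and signaling genes. Over all genes 33.5% held one there. ITGA1, a collagen receptor chain, had 3 enriched windows and a mean near the start of 1.84 over 2 probes, at percentile 99.9, and ICAM2, a ligand of the ITGAL and ITGB2 pair, had 0.97 over 5 probes, at percentile 96.7. Both were above ITGA2B on that measure, and were named after their values were seen. None of the 9 highest windows named from the lists was centered within 1000 bp of a start, and they lay between percentiles 1.37 and 38.3 of brightness. Those of ITGA2B and ITGAV were at 99.5 and 98.8, but those of ITGA5 and ITGB2 were at 8.67 and 20.5. The brightness of the lists' enriched windows near the start was not examined, so bright windows there are not shown to be particular to ITGA2B and ITGAV.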

How the data were processed

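The genes, lists and grouping were chosen with earlier results of these data known. The authors deposited 1 scanner file per array. Per the file headers, the deposited intensity values came from Agilent Feature Extraction 9.5.3.1, and the processed intensities were corrected for a spatial surface and dye-normalized by a linear factor. The deposited log10 ratio of each spot is Cy5 over Cy3, and its deposited log10 error, converted to log2, gave the scanner error. The series value table held the same log10 ratios (largest difference 0). The study itself called peaks on lowess-normalized values, which was not repeated here.

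Here, log2 of processed IP over IgG intensity was centered on each array's median. After removal of controls, non-uniform spots and probes that neither channel measured well above background, the arrays kept 237004 of 237210 probes on chIP1 and 236864 of 237201 on chIP2. Windows held 3 adjacent probes within 1000 bp of the center probe, and a gene's value was its highest window with an annotated probe. Window errors were the root of the summed squared probe errors over 3. For each list of other integrin genes, ligands and adaptors, the 3 highest and the 2 lowest genes are named, and all 10 integrins are. The window step was tested on simulated data with less noise between probes than these arrays had. That checks the computation, and not how often noise alone passes 2-fold. Python 3.11.15 with pandas 2.3.3 and, for normexp (offset 50) and loess, R 4.3.3 with limma 3.58.1 were used. The other alternatives were the series value table, the filters on dim probes, removal of the trend with distance in steps of 500 bp out to 6000 bp, single probes, windows of 5, thresholds, a limit of 2500 bp and other groupings. With 1 hybridization per probe the number of arrays limits the precision, and no p-value was computed.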

Additional observations from a re-analysis of the deposited data

How the results depend on the processing

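No paired analysis was possible because each probe was measured on 1 array and no test was run. Of the 10 integrins, 2 held an enriched and 2 a depleted window with normexp in place of 4 and 6. Over all genes 33.1% and 23.9% did, in place of 57.1% and 52.9%. The integrins then had 4 depleted windows and a median highest window of 0.73, where all genes had 0.83. The platelet minus other differences were 0.30 (highest window) and 0.25 (near the start). With the distance trend removed the median near the start turned to -0.026, and the difference in highest windows was 0.32. With single probes 8 integrins held an enriched probe, where 86.1% of all genes did. Of their probes 33 were enriched and 38 depleted, the median was 1.40 (all genes 1.73) and the difference 0.36. With windows of 5, 2 integrins were enriched, with 5 windows, and 3 depleted, where 34.6% and 34.3% of all genes were. At 1.5-fold 9 integrins were enriched, where 85.0% of all genes were, with 43 enriched and 44 depleted windows. At 3-fold 0 were enriched, with 0 windows, and 3 were depleted, with 5 windows, where 20.6% and 22.3% of all genes were. At 4 robust SDs all 4 counts were 0, where 1.51% of all genes had an enriched window. Within 2500 bp of the start 2 integrins were enriched, where 47.4% of all genes were, and the difference was 0.34. With ITGA2B, ITGB3 and ITGA2 against the 7 others the differences were -0.22 and 0.31. The cause of these changes was not tested. Of 90 values of single integrins under alternatives, 78 stayed on the same side of the enrichment threshold, 12 crossed it and 0 changed sign from an enriched call. The 90 include the series value table and both filters on dim probes. There the ratios and probes of the integrins were the same, so these values could hardly move and do not bear on robustness. Loess kept each of the counts within 1.5 times the reported one, as did, for that reason, the series value table and both filters. Taking ITGB1 at either start alone was added after seeing the data. It moved the mean of ITGB1 near the start from 0.16 to 0.67 (inner) or -0.08 (outer). The median near the start over the 10 integrins and the platelet minus other difference there moved by less than the scanner error.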
